A study of Mus musculus with 6 samples.

Results

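The Wnt family was examined in 50 genes, the protein-coding genes in the deposited table of 12163 genes whose symbols name a Wnt ligand, a Wnt receptor or co-receptor, a secreted or membrane antagonist, an R-spondin or its receptors, or a core relay component of the pathway. They were chosen by name alone. The study profiled fat of wild type C57BL/6 mice by RNA sequencing, with 3 libraries from grafts collected on day 7 and 3 libraries from fat before grafting, and the submitters call the libraries of a group biological replicates. No gene was altered and no agent was given according to the labels, which name neither the depot, the recipient site, the sex nor the age. All levels are normalized counts, meaning gene read counts divided by the size factor of the library, and differences are log2(value + 1) in grafts minus that before grafting, with the standard error (SE) of the fit. Folds are 2 to the power of that difference, so they understate changes of genes with few reads.

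Wnt proteins are lipid-modified secreted ligands that bind Frizzled receptors. With the co-receptors LRP5 and LRP6 they stop the destruction complex of AXIN, APC and kinases from degrading β-catenin, which then acts with TCF/LEF factors on target genes, and other Wnt proteins act through ROR receptors and the polarity branch without β-catenin. In fat, β-catenin signalling is known to hold progenitors back from becoming adipocytes, and mouse Wnt10b is the ligand best known for this, while SFRP and Dickkopf proteins act outside the cell on ligands and co-receptors.

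The listed genes were themselves selected for a difference between the groups: 10772 of the 10854 genes with enough reads to test had an unadjusted p under 0.05. A further 31 annotated protein-coding genes that the name rule matches were outside the table and were not analysed here. The libraries held 14287560 to 15924559 reads in listed genes in grafts and 13027776 to 14237288 before grafting. Adipocyte markers, 10 of 10 listed, summed to 6424 to 25846 normalized counts in grafts and 324086 to 486496 before grafting, so the labelled tissue carried its defining markers before grafting and little of them on day 7. Graft replicate 1 had the highest adipocyte sum of the grafts. Macrophage markers (10 of 10 listed) summed to 202081 to 216149 in grafts and 24732 to 28239 before grafting, and neutrophil markers (8 of 10 listed) to 74548 to 115721 in grafts and 768 to 958 before grafting. In such bulk samples, fewer cells of a type and less RNA per cell cannot be told apart.

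Of the 50 members, 48 could be tested. With a Benjamini-Hochberg adjusted p under 0.05 as the call, limma found 21 that rose and 19 that fell in grafts. That is 83.3% of the tested members, against 80.4% of all 10854 tested genes (41.3% called higher and 39.2% called lower), so the share called is close to the background. The groups did not overlap for 46 of the 48, against 97.6% of all tested genes. Genes were tested if they had 10 or more in 3 libraries. Wnt4, Wnt16, Lgr5 and Lgr6 among the 21, and Wnt10a among the 19, passed only through the group where they are high. Their calls are counted but are not support for a difference. The median log2 difference was 0.47 over the tested members and 0.28 over all tested genes. Only 51 of the 10854 tested genes lay within 0.25 log2 of no change, so the median over all genes is an unstable baseline. It was -0.30 with no filter on low values and -0.32 to -0.30 when a graft was left out. The median over the members was then 0.41 and 0.27 to 0.36. With ribosomal protein genes set to no change, 13 members were higher and 22 lower (37.1% of the calls higher, against 52.5% with the deposited scaling), and the medians moved to -0.29 over the members and -1.01 over all genes. All 4 TCF/LEF factors fell, while most other roles held members that rose and members that fell. Of the antagonists, Sfrp1 and Sfrp2 rose by 8.55-fold and 9.29-fold, and Sfrp5, Dkk2 and Apcdd1 fell, with log2 differences of -2.09, -1.56 and -2.68. Dkk3, a Dickkopf by sequence that is not known to bind LRP6, rose 28.3-fold. The leading listed Frizzled receptor of fat before grafting, Fzd4, fell by a log2 difference of -3.09 while Fzd1, Fzd2 and Fzd7 rose.

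**Figure D1:**
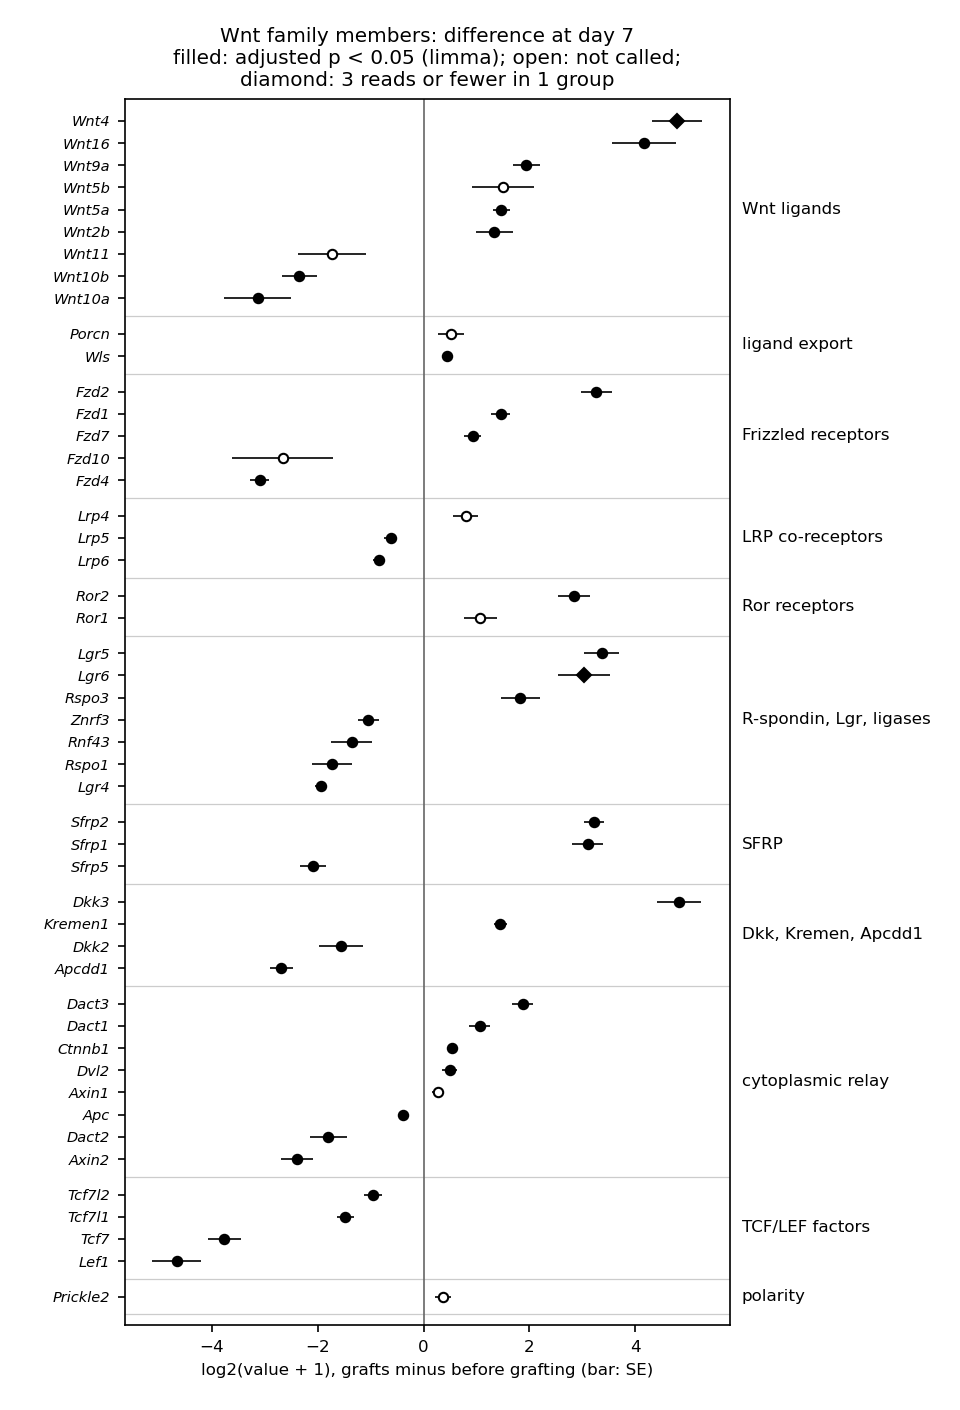
Log2 difference, grafts minus before grafting, of the 48 tested members (points) with the SE of the fit (bars), ordered by role, filled where the adjusted p was under 0.05. The TCF/LEF factors lie left of 0 without exception (-4.66 to -0.95), while ligands, Frizzled receptors and extracellular antagonists lie on both sides, and the diamonds (Wnt4 and Lgr6) mark members with 3 reads or fewer before grafting, whose position depends most on the added 1.

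Among the ligands, 5 were called higher and 2 lower of 9 tested (10 listed of 19 annotated). The 77.8% called was close to the 80.4% of all tested genes, of which 41.3% were called higher and 39.2% lower. The calls of Wnt4, Wnt16 and Wnt10a are counted here but are not support for a difference, as stated above. The summed level per kb of transcript of the listed ligands was 312 ± 70 in grafts and 158 ± 24 before grafting (SD, n = 3 each). Wnt5a, the prototype of ligands that act without β-catenin and the most abundant listed ligand per kb in both groups, reached 981.2, 1381 and 1444 normalized counts in the grafts (values are given in the order of replicates 1, 2 and 3), against 429.9, 495.4 and 434.8 before grafting. Every graft lay above every library before grafting, a log2 difference of 1.47 (SE 0.16, adjusted p = 0.000309). An antisense gene overlaps Wnt5a, Gm2670, which held 7.9 to 21.1 normalized counts in grafts and 2.0 to 9.1 before grafting, far under the level of Wnt5a.

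Wnt9a, a ligand known from joint and blood stem cell development, had 155.7, 246.3 and 197.8 normalized counts in grafts, against 48.3, 63.8 and 41.3 before grafting, a 3.85-fold rise (SE 0.25 on the log2 scale, adjusted p = 0.000861). For Wnt2b, the values were 70.3, 134.8 and 174.1 in grafts and 56.2, 43.6 and 40.3 before grafting (log2 difference 1.34, adjusted p = 0.0327). The groups of both genes were separate, but the call of Wnt2b was lost when any library other than graft replicate 1 was left out (adjusted p 0.0628 to 0.145). Wnt5b, a relative of Wnt5a, had 25.1, 91.2 and 106.8 in grafts and 36.5, 15.2 and 17.7 before grafting. Its groups overlapped through graft replicate 1, and it missed the threshold (1.505, adjusted p = 0.171) but passed it without that library (2.15, adjusted p = 0.00851).

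A pair of ligands with almost no reads before grafting appeared in grafts at low levels. Wnt4 was listed at 0 in all 3 libraries before grafting and had 42.2, 20.4 and 21.8 normalized counts in grafts. Wnt16 had 23.1, 66.9 and 29.7 in grafts, against 2.0, 0 and 2.0 before grafting (log2 difference 4.16, SE 0.61, adjusted p = 0.00164), a difference that was 2.94 with 4 added in place of 1. Both were called higher by the same fit, with Wnt4 at an adjusted p of 0.000185. However, both passed the filter on low values only through the grafts, so these p-values are not support for a rise.

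The ligands that fell were the 2 paralogs Wnt10a and Wnt10b. Wnt10b, the ligand best known for restraining adipogenesis, had 17.1, 28.1 and 14.8 normalized counts in grafts, against 135.1, 99.3 and 79.7 before grafting, a log2 difference of -2.35 (SE 0.33, adjusted p = 0.00135). Wnt10a had 0, 1.0 and 4.0 in grafts and 24.7, 15.2 and 14.8 before grafting (-3.13, adjusted p = 0.0098), or -3.74 without graft replicate 3 and -2.01 with 4 added in place of 1. Wnt10a passed the filter on low values only through the libraries before grafting, so its p-value is not support for a fall. In each gene all grafts lay below all libraries before grafting. Wnt11, a ligand of the polarity branch, had 52.2, 53.3 and 8.9 in grafts and 130.2, 109.4 and 70.8 before grafting. Its difference of -1.73 missed the threshold (adjusted p = 0.147) and was -0.91 without graft replicate 3. Wnt11 was called lower with ribosomal protein genes at no change (-2.45, adjusted p = 0.0238). Wnt9b, not tested, was listed at 0 in all grafts and at 3.0 to 8.1 before grafting.

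The make-up of the ligand pool differed accordingly. Per kb, Wnt5a made up 52.3 ± 2.7% of the listed ligands in grafts and 37.2 ± 6.0% before grafting, Wnt9a 19.3 ± 1.9% in grafts and 9.77 ± 1.90% before, and Wnt10b 1.91 ± 0.57% in grafts and 19.3 ± 2.4% before (SD, n = 3 each). The ratio of Wnt5a to Wnt10b, both per kb, was 24.985, 21.3 and 42.3 in the 3 grafts and 1.38, 2.17 and 2.37 in the 3 libraries before grafting. These shares cover listed ligands only and are a description with no test of their own.

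The machinery of ligand export moved little. Wls, the carrier that takes Wnt proteins to the cell surface, had 2023 to 2229 normalized counts in grafts and 1452 to 1752 before grafting (log2 difference 0.45, SE 0.10, adjusted p = 0.0173). That call was lost without graft replicate 2 or 3 or before-grafting replicate 1 or 3 (adjusted p 0.0689 to 0.0837), and the difference was -0.29 with ribosomal protein genes at no change. Porcn, the acyltransferase that attaches the lipid, was not called (0.52, adjusted p = 0.336, and -0.22 under that scaling), and its groups overlapped.

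**Figure D2:**
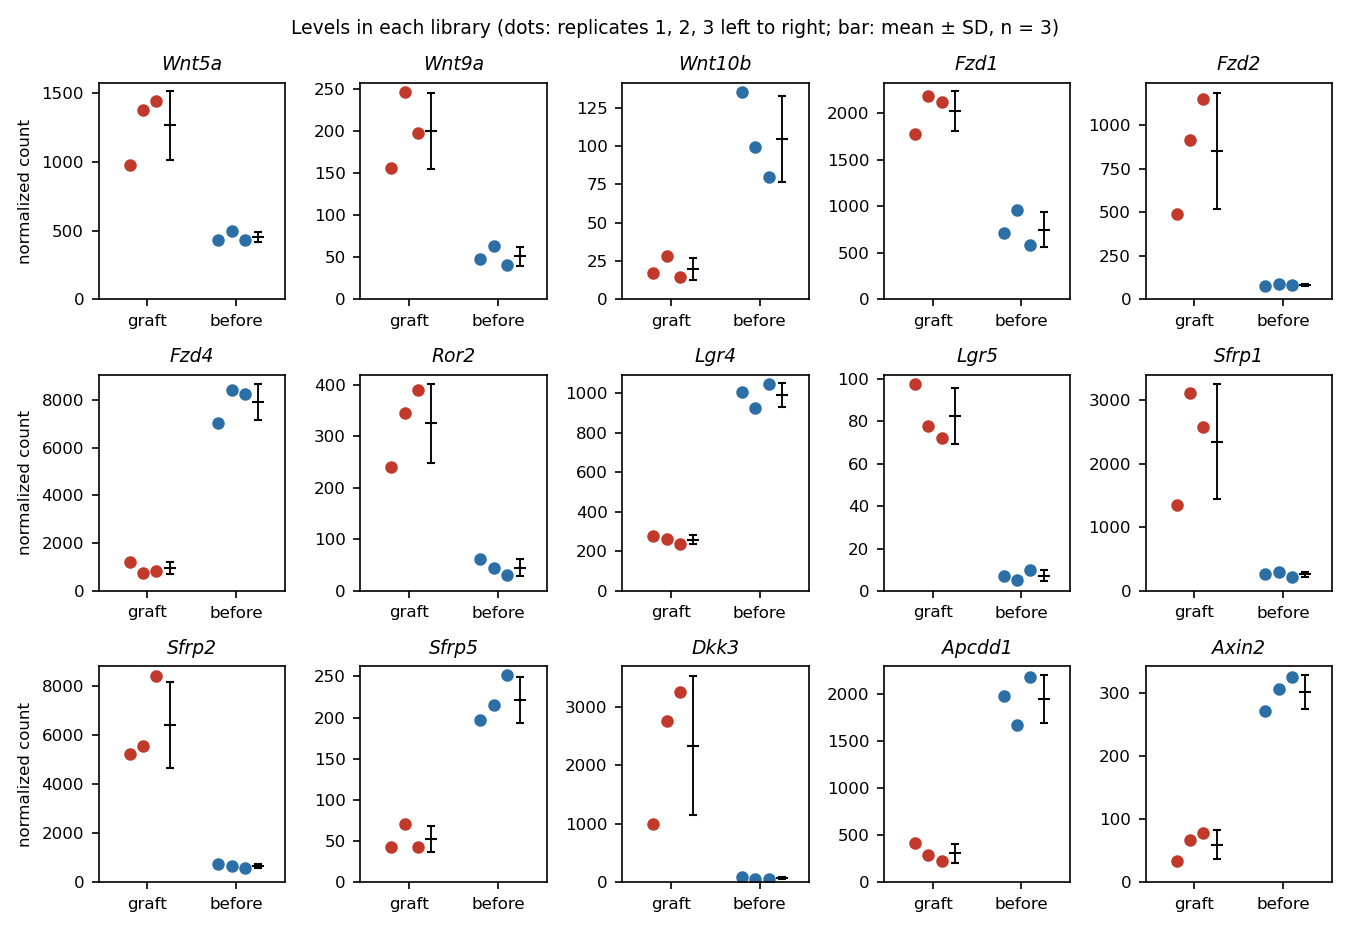
Normalized counts (vertical axes, each from 0) of 15 members in each library, grafts in red at the left and fat before grafting in blue at the right, with the mean ± SD of 3 libraries beside them. No panel has overlapping groups, which also holds for 97.6% of all tested genes. Graft replicate 1 is the lowest graft for Wnt5a, Wnt9a, Fzd1, Fzd2, Ror2, Sfrp1, Sfrp2, Sfrp5, Dkk3 and Axin2.

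Among the Frizzled receptors (5 listed of 10 annotated), the leading listed receptor changed. Fzd4, which in endothelium also receives the ligand norrin, had 1229, 759.3 and 848.7 normalized counts in grafts, against 7041, 8426 and 8268 before grafting. It was 8.52-fold lower in grafts, a log2 difference of -3.09 (SE 0.18, adjusted p = 1.29e-05), with the groups far apart. Fzd2 had 491.1, 914.5 and 1149 in grafts and 78.9, 89.1 and 80.7 before grafting, a 9.59-fold rise (SE 0.29 on the log2 scale, adjusted p = 0.000111). Fzd1 had 1780, 2181 and 2116 in grafts, against 710.0, 958.3 and 582.3 before grafting (2.74-fold, adjusted p = 0.0007). The 2 are close paralogs, as is Fzd7, which rose by a log2 difference of 0.93 (adjusted p = 0.00434), or 0.19 and not called with ribosomal protein genes at no change.

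Fzd10 had low levels, at 6.0, 14.5 and 0 normalized counts in grafts and 52.3, 19.2 and 24.6 before grafting. It missed the threshold (-2.66, adjusted p = 0.126, but -3.51 with adjusted p = 0.0325 without graft replicate 2, and -1.53 without graft replicate 3). The difference was -1.88 with 4 added in place of 1, and it was called lower with ribosomal protein genes at no change (-3.26, adjusted p = 0.0354). Ordered by level per kb, grafts had Fzd1 at 483 ± 51, Fzd2 at 233 ± 91, Fzd7 at 144 ± 22, Fzd4 at 141 ± 37 and Fzd10 at 2.11 ± 2.25, in which Fzd7 and Fzd4 lay within each other's spread. Before grafting the order was Fzd4 at 1177 ± 113, Fzd1 at 179 ± 46, Fzd7 at 75.5 ± 11.8, Fzd2 at 22.6 ± 1.5 and Fzd10 at 9.86 ± 5.45. Fzd4 thus made up 14.5 ± 5.8% of the listed Frizzled level in grafts and 80.4 ± 3.1% before grafting, and Fzd1 48.3 ± 1.8% in grafts and 12.2 ± 2.5% before. The summed level per kb of the 5 listed receptors was 1002 ± 122 in grafts and 1464 ± 119 before grafting (SD, n = 3 each).

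Endothelial markers moved with Fzd4, though less. The 5 listed of 10 summed to 5737 to 7009 normalized counts in grafts and 10534 to 12407 before grafting, with 3 of the 5 called lower and none at 0. Adipocyte markers fell much further, by a median log2 difference of -5.17 over 10 of 10 called lower. The part of either cell type in the fall of Fzd4 was not tested.

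**Figure D3:**
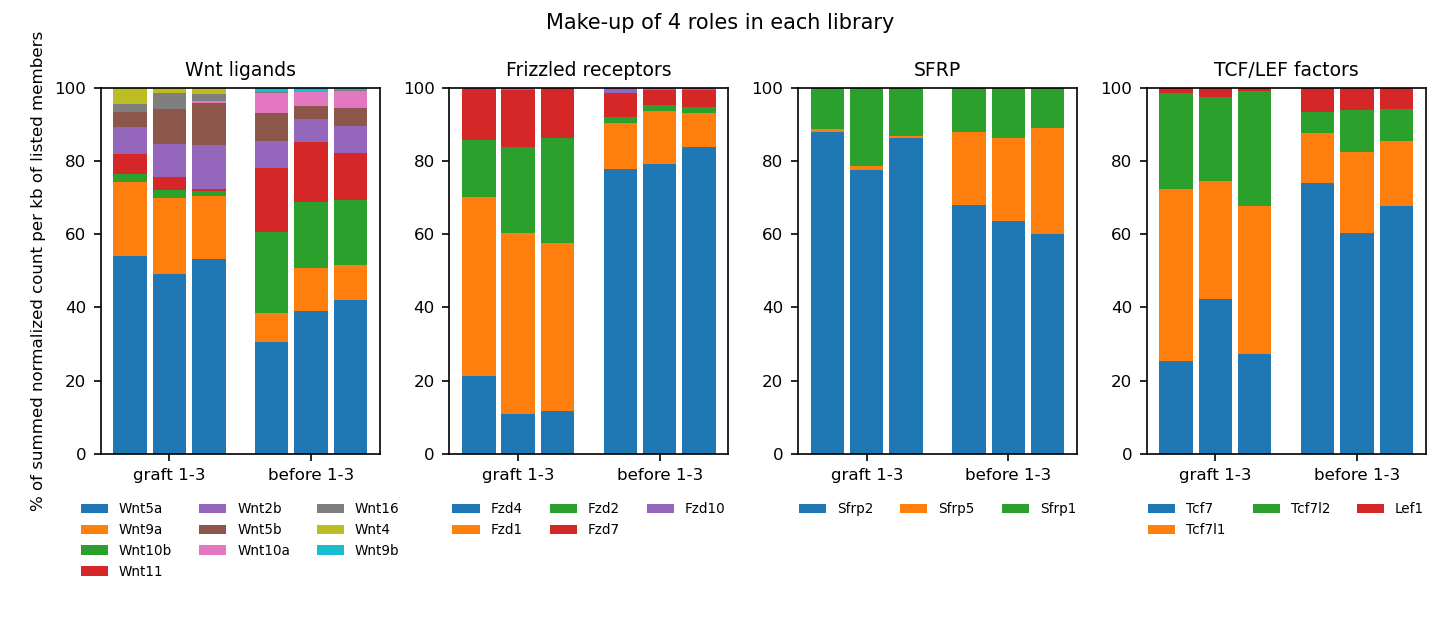
Share (percent, vertical axis) of each listed member in the summed normalized count per kb of its role, for each graft (left 3 bars) and each library before grafting (right 3 bars). Fzd4 holds 78.0 to 83.9% of the Frizzled bars before grafting and 10.8 to 21.2% in grafts, and Tcf7 holds 60.4 to 74.0% of the TCF/LEF bars before grafting and 25.3 to 42.2% in grafts.

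Both LRP co-receptors of the β-catenin branch were lower. Lrp6 had 1876 to 2207 normalized counts in grafts and 3466 to 3962 before grafting (-0.85, SE 0.10, adjusted p = 0.00058), and Lrp5 had 1045 to 1302 in grafts and 1630 to 2030 before grafting (-0.62, adjusted p = 0.0101). Their relative Lrp4, which binds agrin and sclerostin, was higher in each graft than before grafting but missed the threshold (0.79, adjusted p = 0.0689).

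The ROR receptors, tyrosine kinase-like receptors of Wnt5a, lay higher in grafts. Ror2 had 241.0, 344.3 and 389.7 normalized counts in grafts, against 62.1, 43.6 and 30.5 before grafting, a 7.17-fold rise (SE 0.30 on the log2 scale, adjusted p = 0.000263). Ror1 had 309.3, 232.7 and 153.3 in grafts and 128.2, 74.0 and 123.0 before grafting, with separate groups and a difference of 1.07 that missed the threshold (adjusted p = 0.0541) and passed it without graft replicate 3 (1.34, adjusted p = 0.0227). Within the grafts the 2 genes ran in opposite order, Ror1 highest and Ror2 lowest in replicate 1, and their ratio per kb (Ror2 over Ror1) was 1.06, 2.01 and 3.45 in grafts and 0.658, 0.8001 and 0.337 before grafting.

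R-spondins bind LGR receptors and thereby remove the ligases ZNRF3 and RNF43, which otherwise clear Frizzled receptors from the membrane. All 7 listed genes of this arm were called, 3 higher and 4 lower, against 80.4% of all tested genes called. Lgr5, a stem cell marker of intestine and hair follicle, had 97.4, 77.6 and 72.2 normalized counts in grafts, against 6.9, 5.1 and 9.8 before grafting (10.3-fold, adjusted p = 0.000188). Lgr5 and Lgr6 passed the filter on low values only through the grafts, so their p-values are not support for a rise. Lgr4, the widely expressed receptor, had 279.2, 261.8 and 235.4 in grafts and 1004, 922.9 and 1047 before grafting, a log2 difference of -1.93 (SE 0.11, adjusted p = 1.35e-05). Lgr4 remained the more abundant of the pair in grafts, with a ratio of Lgr5 to Lgr4 per kb of 0.170 to 0.20002 in grafts and 0.00315 to 0.00539 before grafting.

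Lgr6 was detected with 36 reads in all grafts and 2 reads in all libraries before grafting, where reads are values divided by the step of the library, which is less certain in graft replicates 1 and 3. This gave a ratio of 17.9 with an exact 95% binomial interval of 4.604 to 153, which covers counting error only. Rspo3, an R-spondin of vessels and stroma, had 58.3, 67.9 and 138.5 normalized counts in grafts and 18.7, 27.4 and 21.6 before grafting (1.83, SE 0.37, adjusted p = 0.00934), or 1.11 and not called (adjusted p = 0.136) with ribosomal protein genes at no change. Rspo1 ran the other way, with 8.0, 10.7 and 10.9 in grafts and 51.3, 34.4 and 23.6 before grafting (-1.73, adjusted p = 0.0141). Its call was lost without before-grafting replicate 1 or 2 (adjusted p = 0.0788 and 0.0592). The ratio of Rspo3 to Rspo1 per kb was 3.99 to 7.98 in grafts and 0.229 to 0.575 before grafting.

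Both ligases are known products of β-catenin target genes, and both fell. Znrf3 had 110.5, 123.2 and 94.0 normalized counts in grafts, against 271.2, 223.9 and 187.9 before grafting (-1.05, SE 0.20, adjusted p = 0.00702). Rnf43 had 9.0 to 21.3 in grafts and 32.4 to 47.3 before grafting (-1.36, adjusted p = 0.0455), a call that was lost when any library other than graft replicate 2 was left out (adjusted p 0.0910 to 0.199).

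The secreted Frizzled-related proteins bind Wnt ligands through a Frizzled-like domain. Sfrp2 was the most abundant secreted antagonist listed in grafts per kb, with 5208, 5561 and 8411 normalized counts in grafts, against 755.3, 673.7 and 594.1 before grafting. This was a 9.29-fold rise (log2 difference 3.22, SE 0.19, adjusted p = 1.31e-05). Sfrp1 had 1353, 3119 and 2575 in grafts and 268.2, 290.7 and 220.3 before grafting, an 8.55-fold rise (adjusted p = 0.000139) with graft replicate 1 well below the other two. Sfrp5, an adipocyte-derived antagonist of mouse fat, went the other way, with 43.2, 70.8 and 43.5 in grafts and 197.2, 214.8 and 251.8 before grafting (-2.09, SE 0.25, adjusted p = 0.000498).

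Of 6 annotated secreted ligand binders 3 were listed, Sfrp1, Sfrp2 and Sfrp5. Their summed level per kb was 3534 ± 901 in grafts and 489 ± 29 before grafting (SD, n = 3 each). The level of Sfrp2 alone was 19.3, 14.6 and 21.2 times the level of Wnt5a per kb in the grafts and 6.38, 4.94 and 4.97 times it before grafting. Sfrp5 made up 0.817 ± 0.306% of the summed level of the 3 in grafts and 24.0 ± 4.5% before. Matrix fibroblast markers, 10 of 10 listed and called higher, summed to 928286 to 1513850 normalized counts in grafts and 131182 to 172880 before grafting, a ratio of the means of 8.18. The part of the fibroblasts in the rise of Sfrp1 and Sfrp2 was not tested.

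Dkk3 had the largest fitted rise of the members with reads in every library. It had 991.3, 2763 and 3250 normalized counts in grafts, against 90.7, 62.8 and 65.9 before grafting, a 28.3-fold rise (log2 difference 4.82, SE 0.42, adjusted p = 0.00013). Dkk3 belongs to the Dickkopf family by sequence, although it is not known to bind LRP6 as the others do. Dkk2, a true LRP6 ligand, had 49.2, 14.5 and 28.7 in grafts and 76.9, 96.2 and 76.7 before grafting (-1.56, adjusted p = 0.0375), and its call was lost when any library other than graft replicate 1 was left out (adjusted p 0.0660 to 0.149).

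Kremen1, the Dickkopf receptor that removes LRP6 from the membrane, had 1509, 1863 and 1590 normalized counts in grafts and 616.3, 652.4 and 541.0 before grafting, a 2.74-fold rise (SE 0.12 on the log2 scale, adjusted p = 6.98e-05). Apcdd1, a membrane inhibitor that binds Wnt and LRP5 and is itself a β-catenin target, fell 6.42-fold. Its values were 419.8, 288.0 and 223.6 in grafts and 1975, 1676 and 2183 before grafting (-2.68, SE 0.22, adjusted p = 7.46e-05). The groups of both genes were well apart.

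In the cytoplasm, Ctnnb1, the gene of β-catenin, was among the most abundant members, at 8134 to 8520 normalized counts in grafts and 5396 to 5977 before grafting. It was called higher (0.53, SE 0.09, adjusted p = 0.00359), but the difference was -0.21 with ribosomal protein genes at no change. Of the destruction complex, Apc was slightly lower (-0.38, adjusted p = 0.0396), a call lost without graft replicate 1 or 3 or before-grafting replicate 1 or 3 (adjusted p 0.103 to 0.157). Axin1 was not called (0.27, adjusted p = 0.18) and was called lower (-0.47, adjusted p = 0.0283) under the ribosomal scaling.

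Axin2, the feedback gene of the complex and the most widely used readout of β-catenin signalling, had 34.1, 67.9 and 78.1 normalized counts in grafts, against 272.1, 305.9 and 325.6 before grafting. It was 5.23-fold lower (log2 difference -2.39, SE 0.30, adjusted p = 0.000772), with every graft below every library before grafting. An antisense gene listed beside it, Gm11670, held 0 to 0.989 in grafts and 2.0 to 6.9 before grafting. Among the members, Rnf43, Znrf3, Apcdd1, Lef1 and Tcf7, also known as targets in some tissues, were called lower. Lgr5, another, was called higher, but it passed the filter on low values only through the grafts, so its call is not support for a rise.

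Dishevelled passes the signal on from Frizzled, and the Dact proteins bind it. Dvl2 was called higher by 0.49 (adjusted p = 0.0425), which was lost without graft replicate 2 or 3 or before-grafting replicate 2 or 3 (adjusted p 0.115 to 0.169) and was -0.25 under the ribosomal scaling. Acadvl overlaps it on the other strand and fell by a log2 difference of -1.80, and reads of the 2 genes may not have been told apart. Dact3 had 235.0, 320.0 and 311.6 normalized counts in grafts and 85.8, 78.0 and 69.8 before grafting (1.87, SE 0.19, adjusted p = 0.000217), and Dact1 had 392.7, 566.4 and 599.5 in grafts and 294.8, 208.7 and 239.0 before grafting (1.06, adjusted p = 0.00688). Dact2 fell, with 14.1, 34.9 and 22.8 in grafts and 79.9, 92.2 and 70.8 before grafting (-1.80, adjusted p = 0.00797). The Dact genes thus divided into 2 that rose and 1 that fell, although Dact1 was no longer called with ribosomal protein genes at no change (0.32).

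Of the polarity core, Prickle2 was not called (0.37, adjusted p = 0.206, and -0.37 under the ribosomal scaling). Prickle4, not tested, had 2 reads, found in the same way, in all grafts and 27 before grafting, a ratio of 13.6 for before grafting over grafts with an exact 95% binomial interval of 3.41 to 118. That interval covers counting error only. Another protein-coding gene is annotated over Prickle4 on the same strand, so this ratio is uncertain.

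All 4 TCF/LEF factors, the nuclear partners of β-catenin, fell. Lef1 had 14.1, 30.1 and 6.9 normalized counts in grafts, against 491.1, 328.2 and 366.9 before grafting, a log2 difference of -4.66 (SE 0.46, adjusted p = 0.000201). Tcf7, which encodes TCF1, had 78.3, 154.2 and 68.3 in grafts and 1648, 981.6 and 1298 before grafting, a difference of -3.76 (SE 0.32, adjusted p = 8.54e-05). Tcf7l1 had 218.9, 176.5 and 151.3 in grafts and 460.5, 536.9 and 515.4 before grafting (-1.48, adjusted p = 0.000363), and Tcf7l2 had 260.2 to 279.3 in grafts and 417.1 to 621.0 before grafting (-0.95, adjusted p = 0.0037). No graft reached the lowest library before grafting for any of the 4, but the groups did not overlap for 97.6% of all tested genes either. All 4 were called in each fit that was run, and 80.4% of all tested genes were called in the main fit.

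Per kb, Tcf7 led before grafting at 499 ± 127, followed by Tcf7l1 at 129 ± 10, Tcf7l2 at 60.7 ± 11.9 and Lef1 at 45.0 ± 9.7, the last pair not differing beyond their spread. In grafts Tcf7l1 at 46.4 ± 8.7, Tcf7 at 38.2 ± 17.9 and Tcf7l2 at 30.9 ± 1.1 lay within or close to each other's spread, and Lef1 stood at 1.94 ± 1.35. The summed level was 117 ± 22 in grafts and 733 ± 115 before grafting (SD, n = 3 each).

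Tcf7 and Lef1 are also defining factors of T cells, whose markers moved with them. The 8 listed of 10 T cell markers were all called lower, with log2 differences of -4.83 to -2.36 and none at 0, and summed to 345 to 739 normalized counts in grafts and 3863 to 6775 before grafting, a ratio of 10.2 for the mean before grafting over that of grafts. Before grafting the T cell sum was 6775, 3863 and 4868 in replicates 1, 2 and 3, the same order as for Tcf7 and Lef1, and among grafts replicate 2 was highest for all of them. B cell markers (9 of 10 listed, all called lower, none at 0) summed to 350, 617 and 284 in graft replicates 1, 2 and 3. Before grafting they summed to 16439, 7813 and 12941. The B cell sum thus had the same order before grafting and was also highest in graft replicate 2, so the shared order is not particular to T cells. The part of lymphocytes in the fall of Tcf7 and Lef1 was not tested.

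**Figure D4:**
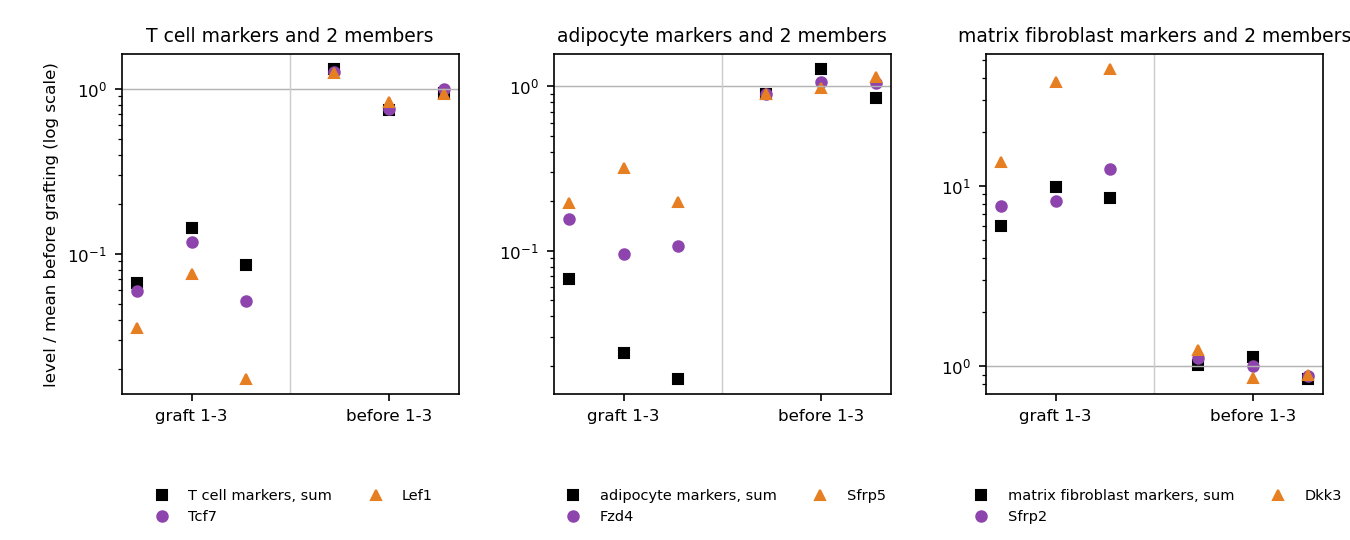
Level in each library divided by the mean before grafting (log axis) for the summed markers of T cells, adipocytes and matrix fibroblasts (black squares) and for 2 members beside each, with grafts at the left. Tcf7 and Lef1 lie below the T cell sum in every graft, Lef1 further than Tcf7, Fzd4 and Sfrp5 lie above the adipocyte sum in every graft, and Sfrp2 lies near the fibroblast sum, with Dkk3 above both in every graft.

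Promoter sequences were examined because TCF/LEF factors, which all fell, bind a known short motif, and Axin2 is a gene on which they are known to act. RefSeq starts (GRCm38.p6) were found for 34 of the 50 members, in 47 windows of the 250 bases before a start, and each was searched on both strands for the TCF/LEF core followed by A or T at 2 positions, that is CTTTGAA or CTTTGAT or CTTTGTA or CTTTGTT, and no other motif was searched. A match was found in 6 of the 34 members (17.6%), against 16.8% of all 27025 genes in the table, so the members held it about as often as genes in general. Of the called members with a window, 1 of 14 higher and 2 of 13 lower had a match, and of the 5 members not called with a window, 3 had one (Wnt5b, Wnt11 and Prickle2). Those 3 called members, Fzd7 (chr1:59481897-59482146, plus strand), Lef1 (chr3:131156044-131156293, plus strand) and Tcf7l2 (chr19:55895071-55895320, plus strand), are shown with Axin2 (chr11:108920099-108920348, plus strand), the readout gene, whose window had none. Each is given 5′ to 3′ on the strand of the gene, with the match in capitals.

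Fzd7: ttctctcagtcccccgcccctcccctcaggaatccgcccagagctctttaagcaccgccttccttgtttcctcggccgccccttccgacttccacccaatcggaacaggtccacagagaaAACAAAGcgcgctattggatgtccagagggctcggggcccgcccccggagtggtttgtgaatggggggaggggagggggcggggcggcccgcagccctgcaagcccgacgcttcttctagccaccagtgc
Lef1: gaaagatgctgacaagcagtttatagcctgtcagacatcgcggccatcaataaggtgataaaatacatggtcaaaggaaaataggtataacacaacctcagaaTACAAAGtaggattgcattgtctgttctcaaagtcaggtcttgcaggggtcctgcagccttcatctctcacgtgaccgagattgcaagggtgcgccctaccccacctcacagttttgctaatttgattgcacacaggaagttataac
Tcf7l2: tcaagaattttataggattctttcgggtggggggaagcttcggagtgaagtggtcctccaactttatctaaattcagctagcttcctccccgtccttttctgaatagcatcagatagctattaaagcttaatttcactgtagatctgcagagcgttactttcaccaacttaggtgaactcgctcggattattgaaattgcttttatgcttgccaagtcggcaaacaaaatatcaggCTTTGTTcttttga
Axin2: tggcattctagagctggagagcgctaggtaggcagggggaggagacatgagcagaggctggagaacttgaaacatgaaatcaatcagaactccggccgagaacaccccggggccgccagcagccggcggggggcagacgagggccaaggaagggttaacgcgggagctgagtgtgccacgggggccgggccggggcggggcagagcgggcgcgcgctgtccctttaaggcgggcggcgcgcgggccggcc

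The match in Fzd7 lay 130 to 124 bases before the start and reads on the opposite strand, as does that in Lef1, 147 to 141 bases before the most downstream of its 4 RefSeq starts, within the gene. The windows of the other Lef1 starts had no match. In Tcf7l2 the match lay 14 to 8 bases before the downstream of its 2 starts, while its upstream window had no match. A match is a run of letters, not a measured binding site, and its absence from the Axin2 window says nothing of sites elsewhere.

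Other genes of the pathway, taken from lists and not from the name rule, were set beside the members. Of 19 tested genes described as β-catenin targets in various tissues (20 listed of 33), 13 rose and 2 fell, with a median log2 difference of 1.96, against 0.28 over all tested genes. The median over all tested genes changed sign with no filter or with a graft left out, as given above. The 78.9% called was close to the 80.4% of all tested genes, of which 41.3% were called higher and 39.2% lower. Of the members named above as targets, Axin2, Znrf3, Rnf43, Apcdd1, Lef1 and Tcf7 had negative differences. Lgr5 had a positive one (3.36), with the limit of the filter given above. By the naming rule, the examples are Plaur, the urokinase receptor (2542 ± 561 normalized counts in grafts and 145 ± 14 before grafting), the AP-1 factor gene Fosl1 (620 ± 69 in grafts and 42.2 ± 10.1 before), the hyaluronan receptor gene Cd44 (9604 ± 2109 in grafts and 920 ± 206 before) and Irs1, an insulin signalling adaptor that fell (73.6 ± 13.3 in grafts and 932 ± 111 before; SD, n = 3 each). Many of these are known to respond to other signals too, and Nkd1, a feedback gene like Axin2, was not called (-0.84, adjusted p = 0.0762), while its paralog Nkd2 rose by 2.42.

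Of 27 tested extracellular and membrane modulators (27 listed of 34), 16 rose and 9 fell (92.6% called, against 80.4% of all tested genes, of which 41.3% were called higher and 39.2% lower). Cthrc1, a secreted protein that is known in mouse to favour Wnt5a signalling through ROR2, had 2278, 3134 and 3577 normalized counts in grafts, against 15.8, 29.4 and 16.7 before grafting (log2 difference 7.14, SE 0.27, adjusted p = 2.16e-06). The heparan sulfate carrier Sdc1 rose by 4.70 and Draxin, a secreted antagonist of Wnt signalling, by 4.87. Draxin had 307.3 normalized counts in graft replicate 1, against 1042 and 1354 in the other two. Tspan12, the partner of FZD4 in norrin signalling, fell like Fzd4 (-2.81, adjusted p = 0.000143), and Trabd2b, which cleaves Wnt proteins, fell by a log2 difference of -3.99.

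Of 25 tested destruction complex partners and nuclear co-factors (25 listed of 41), 8 rose and 8 fell, with a median log2 difference of 0.24. The 64.0% called was below the 80.4% of all tested genes. Gsk3b, a kinase that marks β-catenin for degradation, was not called (0.24, adjusted p = 0.158), and Tle1, a co-repressor that binds TCF/LEF factors, had the largest fall of the list (-1.75, adjusted p = 0.000541), followed by Caprin2 (-1.34) and Sox17 (-1.18). Amer2, which binds APC, had 210.9, 236.6 and 550.0 normalized counts in grafts and 3 reads, found in the same way, in all libraries before grafting, a ratio of 334 with an exact 95% binomial interval of 114 to 1625. That interval covers counting error only and not the spread between libraries. Amer2 too passed the filter on low values only through the grafts, so neither its call nor its interval is support for a rise.

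Of 28 tested genes of the polarity and calcium branch (28 listed of 37), 6 rose and 12 fell (median -0.39). The 64.3% called was below the 80.4% of all tested genes. The 3 Celsr genes, atypical cadherins of the polarity core, were all called. Celsr2 had 26.1, 15.5 and 16.8 normalized counts in grafts, against 1753, 1542 and 1306 before grafting, the largest change of the list (-6.25, SE 0.23, adjusted p = 1.83e-06). Celsr1 fell by a log2 difference of -2.66, while Celsr3 rose by 3.49 to 248 ± 25, against 21.2 ± 2.1 before grafting (SD, n = 3 each). Camk2a, a calcium-dependent kinase gene, rose by 1.75.

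Graft replicate 1 was often the lowest graft for the members called higher. Of these 21 it had the lowest graft value for 17, with a median log2 difference from the mean before grafting of 1.59, against 2.03 and 1.99 in replicates 2 and 3. The 21 include Wnt4, Wnt16, Lgr5 and Lgr6, whose calls are not support for a rise. The count was not made over all genes called higher, so it is not shown to be particular to the members. Of the 19 called lower, graft replicate 1 was the highest graft for 7 and the lowest for 6, with a median of -1.99, against -1.62 and -1.78 in the other two. Its adipocyte marker sum was 25846 normalized counts, against 9259 and 6424 in replicates 2 and 3, and its fibroblast marker sum 928286, against 1513850 and 1327100. The part of these in its Wnt values was not tested.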

How the data were processed

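Total RNA was extracted with Trizol and sequenced on Illumina libraries, per the labels' protocols. The deposited values are a signal per gene: read counts divided by a size factor for each library, as the values themselves show, since 100% were whole multiples of a single step (within 0.01 reads; steps 0.970 to 1.013). The submitters' processing notes name Bowtie 0.12.2 and HISAT2 2.0.5 with mm8 and mm9, without roles, yet 12029 of 12163 listed genes lay within 1000 bp of their GENCODE M21 (GRCm38) position, so coordinates are given on GRCm38. For the counter, the use of strand and the choice of listed genes, the answer is not given in the sources used here. The deposited gene lengths (unit: other, base pairs) served for levels per kb, and the authors' deposited group means were not used.

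The main test was limma 3.58.1 (R 4.3.3, trended robust variance prior, group as sole term, two-sided) on log2(value + 1), for genes at 10 or more in 3 libraries. Benjamini-Hochberg adjustment of the limma p-values ran over 55450 annotated genes, with unlisted genes set to 1. The threshold was 0.05. The variance prior rests on genes selected for a difference. Read numbers given are values divided by the step. Planned edgeR and DESeq2 fits were not run: graft replicates 1 and 3, with steps of 1.004 and 0.989 that lie near 1, did not pass a separate test that was required of reads before a count model, so their read numbers are less certain. Tables were handled in Python 3.11.15 with pandas 2.3.3, numpy 2.4.6 and scipy 1.17.1, and figures drawn with matplotlib 3.10.9. The fit was tested on simulated data.

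Members, lists, motifs and ratios were chosen with earlier results of these data known, and the ratios and promoters shown also after their values were seen. By rule, values of each library are given for the 29 members with a mean of at least 50 in the higher group and a log2 difference of at least 1 in size, with up to 4 called genes per pathway list. 1 result that the rule would name is not reported here. Others named outside that rule, with their values, include Wnt4, Wnt10a, Wnt16, Rspo1, Fzd10, Nkd1, Nkd2, Tspan12, Trabd2b and Gsk3b. Epithelial markers (2 of 10 listed) summed to 78.3 to 113 in grafts and 35.4 to 53.2 before grafting, mural markers (6 listed) to 12865 to 14124 in grafts and 14332 to 15800 before grafting, progenitor markers (8 listed) to 17880 to 23203 in grafts and 11503 to 13919 before grafting, Schwann cell markers (10 listed) to 4365 to 5674 in grafts and 8202 to 9728 before grafting, and mesothelial markers (7 listed, 3 at 0 before grafting) to 116 to 204 in grafts and 156 to 190 before grafting. Some of these sums cover markers that moved in opposite directions. The log2 differences of progenitor markers ran from -1.53 to 1.92 and those of mural markers from -2.81 to 1.69. Those of the 3 tested mesothelial markers ran from -3.95 to 6.30. No skeletal muscle marker was listed.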

Additional observations from a re-analysis of the deposited data

How the results depend on the processing

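Of the 48 tested members, 29 kept their direction and their side of the threshold in every one of the 15 other settings in which they could be tested. Among the 29, Lgr6 could be tested in only 8 settings, Wnt4, Wnt10a and Wnt16 in 11 and Lgr5 in 12. Leaving out a library of the group where these genes are high dropped them from the test, so their stability there is unknown. Members called higher numbered 21 and members called lower 19; the numbers were 13 and 22 when the scaling held ribosomal protein genes constant, where 1901 of all tested genes were higher and 5599 lower (25.3% of calls higher, against 51.3%). That scaling turned 6 members: Porcn (-0.22), Wls (-0.29), Axin1 (-0.47), Ctnnb1 (-0.21), Dvl2 (-0.25) and Prickle2 (-0.37). The cause was not tested. Rescaling by median ratios, listed totals or upper quartiles moved the median of all genes to 0.15, 0.14 and 0.07, called 17 to 19 members higher and 19 lower, and lost Wls and Dvl2, and with upper quartiles also Wnt2b. Upper quartiles gave 41.1% of all calls higher. Leaving out 1 library gave 14 to 19 members higher and 14 to 19 lower, and 3338 to 3982 of all genes higher and 2770 to 3978 lower, against 4479 and 4251; the lowest count of lower genes was that without before-grafting replicate 3. Same-numbered libraries did not deviate together (correlations across genes of -0.157, -0.127 and 0.041 after removing group means), so the numbers were not taken as pairs. With the replicate block 19 members were higher and 16 lower, with Wnt2b, Rnf43, Rspo1, Dkk2, Apc and Dvl2 lost and Wnt11 gained (adjusted p = 0.0469). A pseudocount of 4 called 22 higher and 19 lower, no filter 22 and 21, a minimum of 50 18 and 16, and adjustment over tested genes only 26 and 21. Planned count fits were not run. Full depth outside the listed genes is unknown, and members under about 10 normalized counts are limited by it.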
